A study of Mus musculus with 6 samples.

Results

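Replication-dependent histone genes encode the bulk of the core histones H2A, H2B, H3 and H4 and of the linker histone H1. They were taken as the protein-coding genes whose GENCODE M21 symbols start with Hist1h, Hist2h, Hist3h or Hist4h and whose FPKM was above 0 in at least 1 of 6 mouse skin libraries. FPKM scales the fragments of a gene by its exon length and by the size of the library. Of 67 such genes among 54146 gene IDs, 59 qualified: 6 of H1, 15 of H2A, 16 of H2B, 10 of H3 and 12 of H4. The Hist1 cluster on chromosome 13 held 51 of them, Hist2 on chromosome 3 held 5, Hist3 on chromosome 11 held 2, and Hist4 on chromosome 6 held 1.

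The skin came from 3 mice under chronic restraint stress (CRS), in which a mouse is repeatedly confined in a narrow space, and from 3 control mice (CON), all sampled at 12 weeks of the stress schedule. Each library was taken as 1 mouse, so p-values measure the spread between these libraries. The sources used here do not give strain, sex, age, body site or whether RNA was selected for poly(A) tails. All 7 epidermal keratinocyte markers were measured. Their summed FPKM was 2143, 2292 and 2003 in CON and 2675, 3083 and 2388 in CRS, and the groups did not overlap. Markers of hair matrix and shaft summed to 713, 1669 and 1166 in CON and 1570, 2193 and 2578 in CRS, and these groups overlapped. Of the 6 hair markers, 2 had log2 fold changes above 0 and 4 below. The part of tissue composition in the comparison was not tested. In bulk tissue, fewer dividing cells and less histone RNA per cell cannot be told apart.

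Cells make these histones in S phase, when new DNA has to be packed into nucleosomes. Unlike other mRNAs of animal cells, theirs do not end in a poly(A) tail. They end in a short stem-loop that is bound by the stem-loop binding protein Slbp and cut just downstream with help from the U7 small nuclear RNA. Libraries prepared by poly(A) selection therefore keep little of these transcripts, while libraries prepared by removing ribosomal RNA keep them. Several of these genes also give polyadenylated forms, by reading past the stem-loop to a downstream signal, above all in cells that have left the cell cycle.

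The stem-loop was sought in the annotated transcripts as GGNNCTTTTNAGNNCC, on the sense strand. It was found in 40 of the 59 genes, against 89 of 54079 genes in the whole annotation (0.165%). The sequences below, 5′ to 3′ with the 16-nt match in capitals, are shown because the distance from this element to the annotated end separates the genes in what follows. The first 4 belong to transcripts annotated to end near the stem-loop, and the last 4 to transcripts that run on past it.
Hist1h2ag: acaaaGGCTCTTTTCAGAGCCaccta
Hist1h2bb: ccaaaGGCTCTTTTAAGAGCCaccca
Hist1h3c: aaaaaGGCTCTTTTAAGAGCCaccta
Hist1h4f: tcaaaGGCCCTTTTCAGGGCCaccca
Hist1h1c: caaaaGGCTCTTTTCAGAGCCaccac
Hist1h4i: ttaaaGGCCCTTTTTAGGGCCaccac
Hist3h2a: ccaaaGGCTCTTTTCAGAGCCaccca
Hist1h2ac: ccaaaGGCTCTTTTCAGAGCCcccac
In all 40 genes the outer 6 nt on each side of the match were complementary, as a stem needs. There were 6 distinct matches. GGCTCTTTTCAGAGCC was held by 23 genes of H1, H2A, H2B and H3. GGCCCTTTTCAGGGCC was held by 7 genes, all of them H4.

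By this element the genes fell into 3 sets. In 19 genes an annotated transcript stopped within 100 nt of the stem-loop: 23 nt after it in Hist1h2ag, 74 nt in Hist1h3c and 33 nt in Hist1h4f. In 21 genes every transcript with a match ran farther, by 330 nt in Hist1h4i, 840 nt in Hist1h1c, 1643 nt in Hist3h2a and 2010 nt in Hist1h2ac. The annotation of the other 19 genes held no match, which says only that these letters are not in the annotated transcript. Median exon lengths were 482, 1249 and 411 nt in these sets. All 6 H1 genes lay in the last 2 sets.

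Promoters were read from RefSeq (GRCm38.p6), which held 53 of the 59 genes, as the 300 bases around the annotated start. The letters CCAAT, searched on both strands, occurred in 45 of the 53 promoters (84.9%) and in 41.1% of 27025 promoters of all genes. They were present in all 14 H2A, all 14 H2B, all 6 H1 and all 8 H3 promoters, but in 3 of 11 H4 promoters. ATTTGCAT, the octamer bound by Oct1, occurred in 6 H2A and 5 H2B promoters and in none of the other classes, against 1.97% of all promoters. TATAAA occurred in 32 of the 53 promoters (60.4%), against 15.7% of all. The promoters of Hist1h2bg (chr13:23571150-23571449, plus strand) and Hist1h4i (chr13:22041313-22041612, minus strand) show the contrast, with these motifs in capitals on either strand.
Hist1h2bg: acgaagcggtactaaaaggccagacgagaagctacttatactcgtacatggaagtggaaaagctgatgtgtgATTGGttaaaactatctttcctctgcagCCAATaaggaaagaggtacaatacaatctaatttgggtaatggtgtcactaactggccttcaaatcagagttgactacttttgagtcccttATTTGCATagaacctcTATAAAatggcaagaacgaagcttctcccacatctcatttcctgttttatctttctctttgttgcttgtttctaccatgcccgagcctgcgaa
Hist1h4i: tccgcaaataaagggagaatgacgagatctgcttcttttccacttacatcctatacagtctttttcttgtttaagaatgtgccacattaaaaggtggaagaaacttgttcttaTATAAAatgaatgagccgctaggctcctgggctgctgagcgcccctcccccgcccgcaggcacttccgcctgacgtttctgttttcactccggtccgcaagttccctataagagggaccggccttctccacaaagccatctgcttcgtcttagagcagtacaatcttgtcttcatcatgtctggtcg
Hist1h2bg holds all 3 motifs, and Hist1h4i holds TATAAA alone. A match is a string of letters and not a measured binding site. Many of these genes are neighbours: 12 pairs started back to back within 1000 nt, and 11 of the pairs joined an H2A to an H2B gene. The starts of Hist1h2ae and Hist1h2bg were 176 nt apart, and those of Hist1h2ac and Hist1h2bc 251 nt apart. The promoter windows of such pairs can overlap, so the same site can be counted for both genes. Hist1h2ae and Hist1h2bg hold the same octamer in this way, as do Hist1h2ah and Hist1h2bk. The H2A and H2B counts above are therefore not independent.

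Library depth, recovered from the step of the FPKM values, was 13.3 to 25.7 M fragments. CON replicate 1 stood apart from the rest by a summed FPKM of 14430 over 10 skeletal muscle markers, against 490 to 2968 elsewhere, and by 13.9% of its fragments on protein genes of mitochondrial DNA, against 1.72% to 3.52%. Fibroblast markers summed to 234 in it and to 803 to 1277 elsewhere. CRS replicates 1 and 2 stood apart in opposite directions for short genes. Markers of T and B cells (1.60 to 3.91 summed FPKM) and of spermatids (0.345 to 1.29) were low in every library.

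Histone RNA was detected in every library and was a small share of it. The 59 genes together took 15.7, 16.6 and 16.2 of every 100000 gene fragments in CON replicates 1 to 3, and 18.7, 12.2 and 16.4 in CRS replicates 1 to 3. Their summed FPKM was 148.4, 154.9 and 163.1 in CON (155.5 ± 7.37, SD, n = 3) and 208.0, 98.5 and 165.4 in CRS (157.3 ± 55.2, SD, n = 3). CRS replicate 1 was the highest and CRS replicate 2 the lowest of all 6, with the third CRS library just above the controls. The 2 group means differed by 0.02 on the log2 scale, far less than the spread among the CRS libraries. The log2 ratio was -0.24 without CRS replicate 1 and 0.26 without CRS replicate 2.

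Most of the signal came from few genes. Hist1h2bc and Hist1h1c made up 47.9%, 52.0% and 41.8% of the summed FPKM in CON and 31.1%, 67.2% and 48.7% in CRS. Only 25 genes passed a mean of 1 FPKM over the 6 libraries: 1 of H1, 7 of H2A, 8 of H2B, 1 of H3 and 8 of H4. The median gene had 10, 10 and 9 fragments in CON and 22, 5 and 14 in CRS, so single genes are measured with coarse precision.

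**Figure D1:**
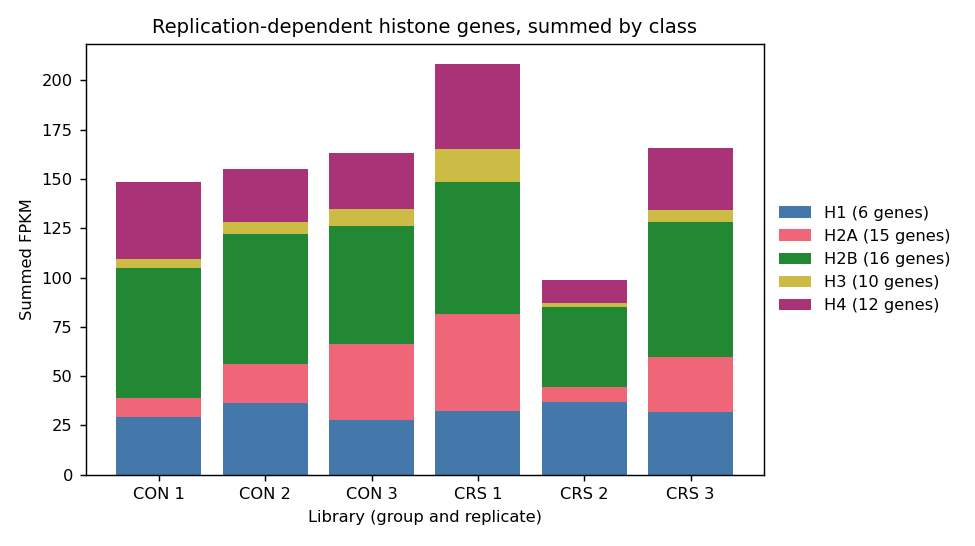
Summed FPKM of the 59 histone genes in each of the 6 libraries, stacked by class (H1, H2A, H2B, H3 and H4). The bar of CRS replicate 1 reaches 208.0 and that of CRS replicate 2 stops at 98.5, while the 3 CON bars lie between 148.4 and 163.1.

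The class sums did not share this spread equally. H1, the linker histones that bind the DNA entering and leaving the nucleosome, summed to 29.2, 36.2 and 27.7 FPKM in CON and 32.2, 36.7 and 32.0 in CRS. H2B summed to 65.8, 66.2 and 60.01 in CON and 66.6, 40.3 and 68.2 in CRS. The H1 sum varied little because Hist1h1c makes up most of it: the other 5 H1 genes summed to 3.11, 1.90 and 2.55 in CON and 5.22, 1.06 and 1.96 in CRS. Hist1h2bc likewise makes up most of the H2B sum, with 45.1, 46.3 and 43.0 FPKM in CON and 37.7, 30.5 and 50.5 in CRS. H2A summed to 9.95, 19.8 and 38.5 in CON and 49.5, 7.86 and 27.9 in CRS. The core histone H3, whose tail carries many of the known chromatin marks, summed to 4.50, 6.05 and 8.48 in CON and 16.6, 2.39 and 5.88 in CRS. H4, its partner in the nucleosome, summed to 38.9, 26.6 and 28.4 in CON and 43.0, 11.2 and 31.4 in CRS. For the sums of H2A, H3 and H4, CRS replicate 1 was the highest and CRS replicate 2 the lowest library. By the median deviation of log2(FPKM + 0.1) from each gene's own mean, this held for every class. That median was 1.20 and -0.99 in CRS replicates 1 and 2 for H1, and 0.60 and -0.45 for H2B.

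Among the H1 genes, Hist1h1c was far above the others. Its FPKM was 26.0, 34.3 and 25.1 in CON and 27.0, 35.7 and 30.0 in CRS, from 521 to 1432 fragments, and the groups overlapped. CRS replicate 2, the lowest library for most histone genes, was the highest for this gene. Hist1h1e reached 0.534 to 1.21 FPKM, Hist1h1b 0.157 to 1.75 and Hist1h1a 0.105 to 1.54, the last 2 with their highest value in CRS replicate 1 and their lowest in CRS replicate 2. The remaining 2 H1 genes had means of 0.0443 and 0.284 FPKM, and the lower of them, the testis linker histone Hist1h1t, was not tested.

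Among the H2A genes, Hist1h2ao and Hist1h2ag led. Hist1h2ao had 0.882, 3.87 and 12.4 FPKM in CON and 18.1, 1.62 and 9.09 in CRS, a 20.5-fold range that spanned both groups. Hist1h2ag had 1.96, 3.83 and 6.21 FPKM in CON and 10.6, 1.20 and 6.22 in CRS. Both end near the stem-loop, and both share most of their sequence with other H2A genes (93.5% and 78.9% of their 50-nt words), so fragments may have been split or dropped between copies. Hist1h2ap, with 93.1% shared, ranged from 0.161 FPKM in CRS replicate 2 to 4.10 in CRS replicate 1. Hist3h2a, which runs past its stem-loop, was steadier at 3.45, 3.76 and 4.59 FPKM in CON and 3.34, 2.21 and 2.63 in CRS. The other 11 H2A genes had means of 0.0149 to 1.85 FPKM.

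Among the H2B genes, Hist1h2bc was the highest of all 59. It had 45.1, 46.3 and 43.0 FPKM in CON and 37.7, 30.5 and 50.5 in CRS, from 660 to 1472 fragments. It was highest in CRS replicate 3 and lowest in CRS replicate 2, only 1.65-fold apart. Hist3h2ba had 6.12, 8.50 and 5.27 FPKM in CON and 9.74, 3.55 and 7.24 in CRS. Hist1h2bj ranged from 0.588 FPKM in CRS replicate 2 to 4.16 in CRS replicate 1. Hist2h2be, whose annotated transcript of 2620 nt holds no match and shares no 50-nt word with another gene, went the other way, with 2.28, 1.53 and 1.46 FPKM in CON and 0.834, 1.96 and 0.621 in CRS (log2 fold change -0.71, SE 0.52). Its CRS replicate 2 value exceeded the other 2 CRS values. The other 12 H2B genes had means of 0.0174 to 1.38 FPKM.

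Among the H3 genes only Hist1h3c passed a mean of 1 FPKM. It had 0.588, 1.19 and 2.27 FPKM in CON and 5.78, 0.555 and 1.51 in CRS, which is 70 fragments in CRS replicate 1 and 9 in CRS replicate 2. Hist2h3c2 ranged from 0.267 to 1.43, Hist1h3g from 0.293 to 1.47 and Hist1h3a from 0.146 to 2.43 FPKM, each lowest in CRS replicate 2. The other 6 H3 genes had means of 0.223 to 0.767 FPKM.

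Among the H4 genes, Hist1h4i and Hist1h4h led. Hist1h4i, running past its stem-loop, had 18.1, 14.4 and 12.8 FPKM in CON and 13.4, 6.36 and 13.5 in CRS. Hist1h4h had 9.90, 4.70 and 3.36 in CON and 7.19, 2.23 and 7.51 in CRS. Hist1h4f had 2.30, 1.67 and 1.73 FPKM in CON and 4.52, 0.298 and 1.52 in CRS, which is 34 fragments against 3 in the first 2 CRS libraries. Hist1h4d had 1.16, 1.102 and 1.59 in CON and 4.93, 0.239 and 1.19 in CRS, although its transcript runs 770 nt past the stem-loop. All 4 were lowest in CRS replicate 2. The other 8 H4 genes had means of 0.183 to 1.499 FPKM.

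The remaining 8 of the 67 genes were listed at 0 in every library: Hist1h4b, Hist2h2aa1, Hist2h2aa2, Hist1h2aa, Hist1h2ba, Hist2h3b, Hist2h3c1 and Hist2h2bb. Of these, Hist2h2aa2 and Hist2h3c1 share 100% of their 50-nt words with another gene, and Hist2h2aa1 89.4%. Hist1h2aa and Hist1h2ba, testis histones, share 2.35% and 38.2%. Over the 59 genes, 26 share more than 50% of these words with another gene and are uncertain for that reason. In 15 genes an exon overlaps a gene on the opposite strand and in 4 a gene on the same strand. Fragments of overlaps on opposite strands cannot be told apart here, since the strand setting was not given. Overlaps on the same strand could not be separated by strand in any setting.

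Without correction for gene length, the transcripts annotated to end at the stem-loop showed the widest spread. The 19 genes of that set gave 245, 259 and 270 fragments in CON and 667, 111 and 486 in CRS. Per 100000 gene fragments this was 1.27, 1.27 and 1.98 in CON. In CRS it was 3.39 in replicate 1 (95% exact Clopper-Pearson interval 3.13 to 3.65), 0.422 in replicate 2 (0.347 to 0.508) and 1.88 in replicate 3 (1.72 to 2.06). These intervals cover counting error only. CRS replicates 1 and 2 lay outside the range of the controls on opposite sides, and CRS replicate 3 lay within it.

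The transcripts that run past the stem-loop had a summed FPKM of 65.7, 74.6 and 65.3 in CON and 77.4, 54.4 and 65.7 in CRS. Much of that steadiness came from Hist1h1c: without it the sums were 39.7, 40.3 and 40.2 in CON and 50.4, 18.7 and 35.6 in CRS. That of the transcripts ending at it was 27.6, 26.8 and 42.1 in CON and 70.8, 8.91 and 40.0 in CRS. The genes with no match summed to 55.1, 53.5 and 55.7 in CON and 59.7, 35.2 and 59.7 in CRS. Hist1h2bc made up most of that sum, at 30.5 to 50.5 FPKM per library. By the median log2 deviation from each gene's own mean, the genes with no match were at -0.05, -0.07 and 0.31 in CON. In CRS they were at 1.33, -1.01 and 0.05. Transcripts ending at the stem-loop thus held 34.1% of the histone FPKM in CRS replicate 1 and 9.04% in CRS replicate 2, against 17.3% to 25.8% in CON.

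**Figure D2:**
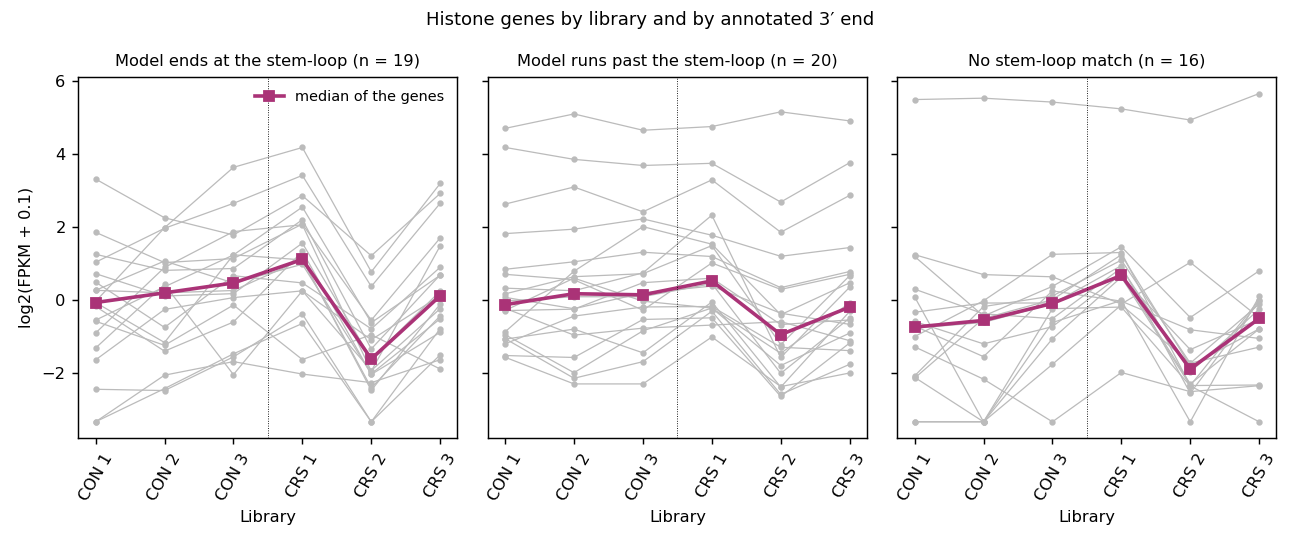
Level of each tested histone gene as log2(FPKM + 0.1) in the 6 libraries, in 3 panels by annotated 3′ end (thin lines, 1 gene each), with the median of the panel as a thick line with squares. In each panel the median is highest in CRS replicate 1 and lowest in CRS replicate 2.

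Gene by gene, 55 of the 59 passed the filter of a mean of 0.1 FPKM used for all comparisons. Of these, 25 (45.5%) were highest in CRS replicate 1 and lowest in CRS replicate 2, against 13.5% of the 28389 genes that passed the same filter. By set, the count was 10 of 19 for transcripts ending at the stem-loop, 9 of 20 for those running past it and 6 of 16 for those with no match. Among other protein-coding genes it was 27 of 148 (18.2%) below 500 nt and 141 of 682 (20.7%) from 500 to 1000 nt. CRS replicate 1 was the highest library for 35 of the 55 (23.4% of all genes tested), and CRS replicate 2 the lowest for 34 (27.9% of all genes tested).

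Deviations from each gene's own mean, on the log2(FPKM + 0.1) scale, put sizes to this. The median of the set ending at the stem-loop was 0.22, -0.14 and 0.48 in CON and 1.36, -1.41 and 0.45 in CRS. The median of the set running past it was -0.05, 0.16 and 0.29 in CON and 0.66, -0.76 and -0.06 in CRS. Both sets were highest in CRS replicate 1 and lowest in CRS replicate 2, the first set by more before any correction for gene length. Short protein-coding genes that are not histones moved in the same sense. Those below 500 nt had medians of -0.26, 0.11 and -0.02 in CON and 0.90, -0.89 and 0.34 in CRS. Those of 4000 nt and over went the opposite way, with -0.35 in CRS replicate 1 and 0.57 in CRS replicate 2. With a length trend subtracted from each library, the set ending at the stem-loop was at 0.65 in CRS replicate 1 and -0.30 in CRS replicate 2. The set running past it was then at 0.47 and -0.42.

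**Figure D3:**
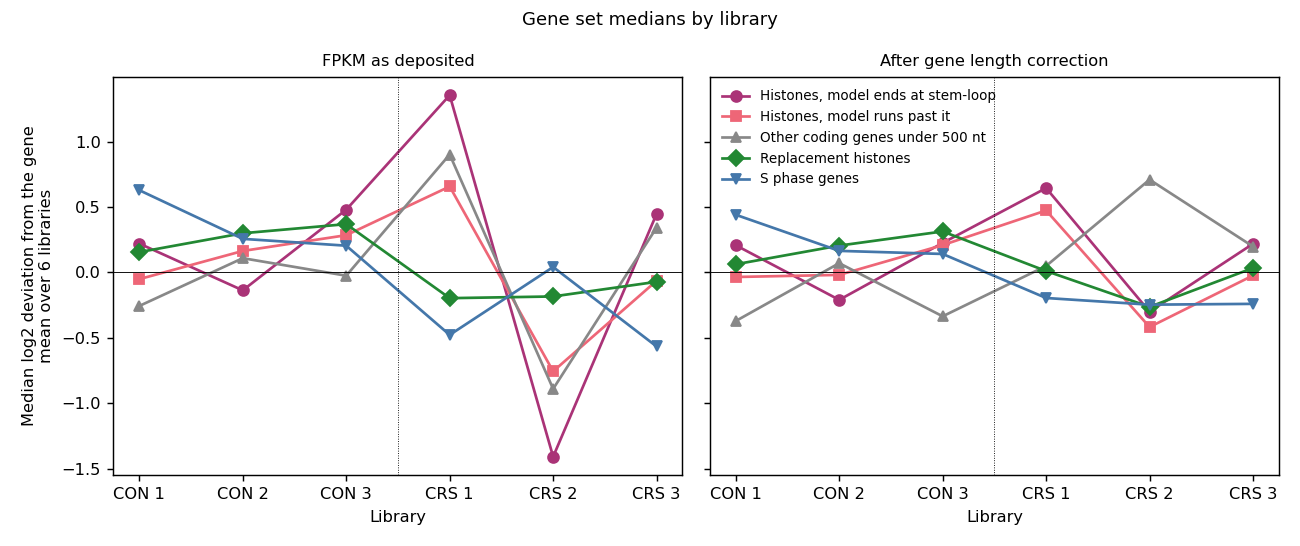
Median log2 deviation from the gene mean in each of the 6 libraries, for 2 histone sets, short coding genes, replacement histones and S phase genes, before (left) and after (right) the length trend was subtracted. The set ending at the stem-loop goes from 1.36 in CRS replicate 1 to -1.41 in CRS replicate 2, and the S phase genes lie at -0.48 and 0.04 in the same libraries. On the right the set ending at the stem-loop goes from 0.65 to -0.30, and the S phase genes lie at -0.20 and -0.25.

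Gene length therefore had to be set beside the difference between these 2 libraries. From 300 to 500 nt, the median difference, CRS replicate 1 minus CRS replicate 2, was 2.89 on the log2 scale for 20 histone genes and 1.71 for 91 other protein-coding genes. From 500 to 1000 nt it was 2.69 for 19 histone genes and 1.35 for 682 others. From 1000 to 2000 nt it was 1.24 for 9 and 0.47 for 2181, and from 2000 to 4000 nt 0.58 for 5 and -0.37 for 5052. In each of these ranges the histone median lay above that of the other genes. Over all lengths, 43 of the 55 exceeded the median of the other genes in their range and 33 exceeded the upper quartile.

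Subtracting a smooth length trend from each library reduced the difference but did not remove it. For the set ending at the stem-loop the median fell from 3.00 to 1.20, for the set running past it from 1.31 to 0.87, and for the genes with no match from 2.49 to 0.60. The trend was not exact for short genes: other coding genes below 500 nt had a corrected median of 0.71 in CRS replicate 2 and 0.05 in CRS replicate 1. Before that subtraction, 18 of 19, 18 of 20 and 15 of 16 genes lay above 0. These are differences between single libraries and have no replicate check. Hist1h2ap (4.01), Hist1h4d (3.89) and Hist1h2ak (3.64) had the widest differences, and Hist2h2be (-1.14), Hist1h2bf (-0.68), Hist1h1c (-0.40) and Hist1h2be (-0.09) were below 0. These examples were chosen after their values were seen.

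**Figure D4:**
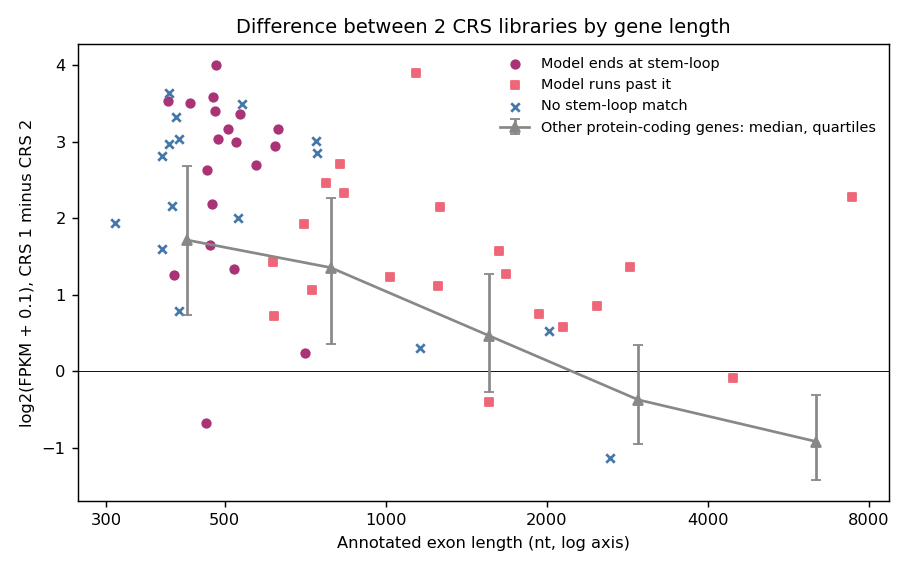
Difference in log2(FPKM + 0.1) between CRS replicates 1 and 2 against annotated exon length on a log axis, for each histone gene by set and for other protein-coding genes as medians and quartiles by length range. Most histone points lie above the median of other genes of like length, which is 1.71 from 300 to 500 nt and -0.92 from 4000 nt.

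Several other kinds of RNA without a poly(A) tail were also highest in CRS replicate 1 and lowest in CRS replicate 2. Rn7sk, the small nuclear RNA that holds the elongation factor P-TEFb inactive, had 138.2, 127.2 and 171.6 FPKM in CON and 647.4, 19.1 and 171.7 in CRS, a 33.8-fold gap between CRS replicates 1 and 2. Genes annotated as ribosomal RNA took 1.26%, 0.658% and 2.09% of gene fragments in CON and 3.27%, 0.120% and 0.9503% in CRS. Genes of the class misc_RNA, which holds Rn7sk, took 0.0246% in CRS replicate 1 and 0.00190% in CRS replicate 2, against 0.00550% to 0.00812% in CON. Mitochondrial ribosomal RNA took 0.181% in CRS replicate 2 and 0.649% to 1.40% elsewhere. Small nuclear RNA genes had the same highest and lowest library, at 0.0153% and 0.00349%. The libraries between these ends came in another order than for the histone genes: ribosomal RNA was lower in CRS replicate 3 than in CON replicates 1 and 3. None of these values was corrected for gene length.

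Other such RNAs followed only in part or not at all. Of 9 tested RNAs of a list chosen for lacking poly(A) tails, 2 (22.2%) were highest in CRS replicate 1 and lowest in CRS replicate 2. The list includes Malat1 and Neat1, and whether each RNA lacked a tail here was not tested. The list's median deviation was highest in CRS replicate 1 (1.28) and lowest in CRS replicate 3 (-0.71). With the length trend subtracted, which was not exact for short genes, it was 0.19 in CRS replicate 1. It was then highest in CRS replicate 2 (0.54) and lowest in CON replicate 2 (-0.64). Small nucleolar RNA genes were highest in CON replicate 3 and lowest in CRS replicate 3. Small Cajal body RNA genes were highest in CRS replicate 1 but lowest in CON replicate 2. Mitochondrial tRNA genes were lowest in CRS replicate 2 (0.00624%) but highest in CON replicate 1 (0.0466%). Malat1, a nuclear RNA whose end is a triple helix and not a poly(A) tail, had 100.5, 64.4 and 127.6 FPKM in CON and 84.7, 261.7 and 53.9 in CRS, so it was highest in CRS replicate 2. These shares and FPKM values were not corrected for gene length. Rmrp and Rpph1 were listed at 0 in every library. What part library preparation has in the histone values was not tested.

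Set against other histone and S phase genes, the histone total was also uneven. Replacement histone genes, whose expression is not restricted to S phase and most of whose mRNAs carry poly(A) tails (H2afx also gives a stem-loop form), summed to 781.5, 1055 and 828.4 FPKM in CON and 675.8, 628.2 and 840.3 in CRS. The replication-dependent total was 19.0%, 14.7% and 19.7% of that in CON and 30.8%, 15.7% and 19.7% in CRS. For the set ending at the stem-loop it was 3.53%, 2.54% and 5.08% in CON and 10.5%, 1.42% and 4.76% in CRS. Relative to the 28 S phase genes the total was 39.4%, 48.5% and 57.5% in CON and 116%, 42.3% and 86.9% in CRS. The libraries' order by histone RNA therefore differed from their order by S phase mRNA, whose medians were 0.63, 0.26 and 0.20 in CON and -0.48, 0.04 and -0.57 in CRS. These sums, ratios and medians were not corrected for gene length. With the length trend subtracted, the S phase medians were 0.44, 0.17 and 0.14 in CON and -0.20, -0.25 and -0.24 in CRS.

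The comparison of stressed with control skin asks whether the histone genes changed with stress. No histone gene passed the test: 0 of 55 had an adjusted p under 0.05 (limma, Benjamini-Hochberg over 28389 genes), as did 0% of all genes, higher or lower. At an unadjusted p under 0.05 the count was also 0 of 55, against 0.919% of all genes higher and 1.63% lower. The log2 fold change, CRS over CON, was above 0 for 23 genes and below 0 for 32, with a median of -0.06. Over all genes tested, 32.2% were above 0 and 67.8% below, and the median was -0.20. Scaling the libraries by median ratios moved the median of all genes to 0.01, and put 36 of the 55 (65.5%) above 0 in place of 41.8%.

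The direction rested on single libraries. Without CRS replicate 1 the median was -0.52, with 9 of 55 genes above 0, and without CRS replicate 2 it was 0.53, with 43 above 0. Without both it was 0.05, with 29 above 0. Without CON replicate 3 it was 0.06, with 33 above 0. Class medians were 0.04 for H1, -0.03 for H2A, -0.18 for H2B, 0.11 for H3 and -0.10 for H4. Median-ratio scaling turned those of H2A, H2B and H4 positive, at 0.18, 0.03 and 0.14.

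Hist3h2a was the only tested histone gene whose groups did not overlap, with 3.94 ± 0.590 FPKM in CON and 2.73 ± 0.574 in CRS (SD, n = 3 each). Its log2 fold change was -0.52 (SE 0.34, adjusted p = 1.00, limma), and the exact two-sided permutation p was 0.1, the smallest that 3 against 3 allows. Groups that did not overlap with CRS lower occurred in 5.19% of all genes tested, and with CRS higher in 1.65%. The annotated exons of Hist3h2a overlap Trim17 on the same strand.

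The other named genes had wide errors. Among the highest, Hist1h1c had a log2 fold change of 0.12 (SE 0.29), Hist1h2bc -0.21 (SE 0.31) and Hist1h4i -0.51 (SE 0.37). Genes on fewer fragments were mostly less precise. Of those ending at the stem-loop, Hist1h2ao was at 0.85 (SE 1.05), Hist1h3c at 0.52 (SE 0.82) and Hist1h4f at -0.46 (SE 0.80). Hist1h4d, which runs past it, was at -0.07 (SE 0.88). Genes among the 2 lowest unadjusted p-values of their classes gave -1.12 (SE 0.75) for Hist1h2bm, -0.84 (SE 0.58) for Hist1h2bf, -0.68 (SE 0.57) for Hist2h3c2, -0.73 (SE 0.67) for Hist1h4j and 1.23 (SE 1.01) for Hist1h2ai. Several of these values rested on 1 library. Without CRS replicate 2, Hist1h2bm was at -0.37, Hist2h3c2 at -0.24, Hist1h4j at -0.07 and Hist1h4f at 0.47. Without CRS replicate 1, Hist1h3c was at -0.32 and Hist1h2ai at 0.24, and without CON replicate 1, Hist1h2ao was at -0.09. Hist1h2ai rests on 0 to 11 fragments per library. Each had an adjusted p of 1.00 by limma, so none passed the test.

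The genes that serve histone supply mostly had lower means in CRS, but none passed the adjusted threshold. All 15 factors of histone mRNA 3′ ends and histone gene transcription had log2 fold changes below 0 (median -0.46), and 1, Slbp, had an unadjusted p under 0.05. Over all genes tested, 67.8% were below 0 and 1.63% were lower at that p. In 5.19% the groups did not overlap, with CRS lower. Slbp had 9.05, 7.62 and 7.58 FPKM in CON and 3.52, 5.73 and 4.04 in CRS. The groups did not overlap, and its log2 fold change was -0.88 (SE 0.32, adjusted p = 1.00, limma). Coil, the marker protein of Cajal bodies, had -0.72 (SE 0.35), and Ncbp1, a subunit of the cap-binding complex, -0.35 (SE 0.31). Under median-ratio scaling 14 of the 15 lay below 0, with a median of -0.24, and 0 had an unadjusted p under 0.05. Without CRS replicate 2 there were 11, where 14.4% of all genes tested were lower at that p.

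Histone chaperones, which carry new histones to DNA, had 15 of 15 fold changes below 0 (median -0.62), and 3 of them had an unadjusted p under 0.05. The shares over all genes tested were 67.8% below 0 and 1.63% lower at that p. Asf1b, which hands H3 and H4 to assembly factors, had 9.46, 8.60 and 8.17 FPKM in CON and 4.65, 3.74 and 5.85 in CRS, with a log2 fold change of -0.89 (SE 0.31). Hat1, which acetylates new H4, had -0.76 (SE 0.28), and the histone-binding protein Rbbp7 -0.42 (SE 0.30). With median-ratio scaling 12 of the 15 lay below 0, and 0 had an unadjusted p under 0.05, as with the replicate number as a block or without CON replicate 1 or CRS replicate 1. Without CRS replicate 2 there were 12, where 14.4% of all genes tested were lower at that p.

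All 28 S phase genes were below 0 (median -0.72), against 67.8% of all genes tested. Of the 28, 9 had an unadjusted p under 0.05, against 1.63% of all genes lower at that p. Pcna, the clamp of the replication fork, had 77.6, 71.6 and 51.7 FPKM in CON and 30.2, 38.3 and 43.0 in CRS, a log2 fold change of -0.84 (SE 0.32). Ccne2, a cyclin of S phase entry, had -1.08 (SE 0.41). All 28 remained below 0 under median-ratio scaling, with a median of -0.49, and without each single library, and 27 did without both CRS replicates 1 and 2. The unadjusted p-values were less stable: 1 of the 28 was under 0.05 with median-ratio scaling, 1 without the mean-variance trend and 0 with the replicate number as a block. Without CON replicate 1 there were 0 of 28, without CRS replicate 1 there was 1, and without CRS replicate 2 there were 23, where 14.4% of all genes tested were lower at that p. Muscle and mitochondrial RNA stood out in CON replicate 1 alone, and their part in this comparison was not tested.

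Of the 11 replacement histone genes, 9 had fold changes below 0 (median -0.58), against 67.8% of all genes tested. An unadjusted p under 0.05 was reached by 2, against 1.63% of all genes lower at that p. H2afx, the variant phosphorylated at DNA breaks, had 44.3, 46.8 and 46.0 FPKM in CON and 23.8, 31.9 and 28.1 in CRS, a log2 fold change of -0.72 (SE 0.28). Cenpa, the centromeric H3, had -0.67 (SE 0.29). H3f3b, the most abundant, had 255.6, 357.1 and 266.8 FPKM in CON and 242.6, 212.4 and 278.1 in CRS, and its groups overlapped. With median-ratio scaling 8 of the 11 lay below 0, and 0 had an unadjusted p under 0.05. Each of these named genes had an adjusted p of 1.00 by limma.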

How the data were processed

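Total RNA of 6 mouse skin samples was sequenced, and 1 table per library was deposited. The authors' deposited values were FPKM, aligned with HISAT2 to GRCm39 per the submitters' processing notes; the sources used here do not give the counter, annotation or versions. Symbols, exon lengths and transcripts came from GENCODE M21 (GRCm38), which held 54079 of 54146 IDs, so genes are given without coordinates except for RefSeq promoters. FPKM times exon length fell on whole fragments for 98.1% to 98.3% of values up to 100 fragments (within 0.05), giving depth.

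CRS and CON were compared by limma 3.58.1 (R 4.3.3) on log2(FPKM + 0.1), with a mean-variance trend, two-sided, for the 28389 genes whose mean reached 0.1 FPKM, with Benjamini-Hochberg adjustment. Fold changes on that scale understate the change of low genes. The fit was tested on data simulated from the means and spreads of these genes, with 50 genes changed at each size. It called 0% of them at a log2 change of 1, 10% at 2, 38% at 3 and 68% at 5. A gene that was not called may therefore still have changed. The length trend was a lowess (span 0.3) over genes of at least 1 FPKM. Sequence sharing was counted over 50-nt words of all annotated transcripts. Pairs of equal replicate number did not deviate together (r = -0.30, -0.04 and 0.10), so no block was used.

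The histone genes and the related lists were chosen with earlier results of these data known. Named genes were, per class, the 4 highest by mean FPKM and the 2 of lowest unadjusted p, with any whose groups did not overlap at 1 FPKM or more; per related list, the 2 of lowest unadjusted p and the highest; and Slbp. Other splits, such as by stem-loop distance, were made after the data were seen. Alternatives were other pseudocounts, filters, scalings, a fragment-based fit, a replicate block and each library left out; a length correction, both outlying CRS libraries left out and stem-loop transcripts alone were added after seeing the data.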

Additional observations from a re-analysis of the deposited data

How the results depend on the processing

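In all 17 alternatives 0 genes were called. At an unadjusted p under 0.05 there were 261 genes higher and 462 lower, but 122 and 132 without CON replicate 1, 778 and 4098 without CRS replicate 2, and 165 and 932 without CRS replicate 1. The median-ratio scaling gave 424 and 183, and the length correction 756 and 332. Of 669 values for the fold changes of 40 named genes, 623 kept their direction and side of the threshold, 46 changed sign, and the smallest adjusted p was 0.195. With median-ratio scaling Hist1h2bc turned to 0.033, Hist1h2ap to 0.15, Hist3h2ba to 0.20, Hist1h4h to 0.12, Hist1h4d to 0.16 and Rn7sk to 0.074. The length correction gave 0.11 for Hist1h2ap, 0.13 for Hist3h2ba, 0.083 for Hist1h4h, 0.085 for Hist1h4d and 0.13 for Rn7sk. A pseudocount of 1 gave 0.089 for Hist1h2ap and 0.15 for Hist1h4d. Hist1h1a turned to -0.085 with a pseudocount of 0.01, -0.16 with voom and -0.023 without mitochondrially encoded genes. Without CRS replicates 1 and 2, Hist1h2ap was at 0.86, Hist1h2bc at 0.17, Hist3h2ba at 0.15, Hist1h2bj at 0.36, Hist1h3a at -0.16, Hist1h4h at 0.47 and Rn7sk at 0.25. Leaving out each library in turn, the ranges were -0.71 to 0.80 for Hist1h1a, -0.91 to 0.51 for Hist1h1b, -0.52 to 0.0012 for Hist1h1e, -0.37 to 1.15 for Hist1h2ag, -0.093 to 1.83 for Hist1h2ao and -0.85 to 1.15 for Hist1h2ap. They were -0.76 to 0.55 for Hist1h2bj, -0.35 to 0.37 for Hist3h2ba, -0.73 to 0.95 for Hist1h3a, -0.32 to 1.26 for Hist1h3c and -0.78 to 0.22 for Hist1h3g. For Hist1h4d they were -1.05 to 0.90, for Hist1h4f -1.30 to 0.47, for Hist1h4h -0.45 to 0.44 and for Rn7sk -1.33 to 1.21. The cause was not tested. The histone median ranged from -0.52 to 0.53 and the log2 ratio of summed FPKM from -0.24 to 0.26 over the same settings; that ratio was 0.30 with median-ratio scaling and 0.31 for transcripts ending at the stem-loop. With the replicate block, which pairs libraries that share only a number, the histone median was -0.06 and 256 and 370 genes had an unadjusted p under 0.05. The median histone gene rested on 5 to 22 fragments per library.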

Other observations

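Of 15 genes of G2 and mitosis, 14 had log2 fold changes below 0 in CRS (median -0.84), against 67.8% of all genes tested. By limma 8 had an unadjusted p under 0.05, against 1.63% of all genes lower at that p, while 0 passed the adjusted threshold. With median-ratio scaling that 8 fell to 2, and with the replicate number as a block to 3. Without 1 library at a time it ranged from 4 to 14. The highest count was without CRS replicate 2, where 14.4% of all genes tested were lower at that p. Ube2c, which helps the anaphase-promoting complex, had 29.8, 26.7 and 25.5 FPKM in CON and 15.5, 11.2 and 13.7 in CRS, a log2 fold change of -1.02 (SE 0.28). Cdk1, the kinase that drives entry into mitosis, had 13.3, 12.4 and 11.6 FPKM in CON and 5.94, 6.22 and 7.27 in CRS, with -0.93 (SE 0.28). The groups of both genes did not overlap, as in 5.19% of all genes tested with CRS lower. Both were named for having the lowest unadjusted p-values of the list.

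Among 9 tested RNAs of the list chosen for lacking poly(A) tails, 5 had fold changes above 0 and 4 below, with a median of 0.18. Rny1 had -1.88 (SE 1.17) on 0 to 3 fragments per library, and Vaultrc5 1.49 (SE 1.06) on 0 to 4.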
